A study of Mus musculus with 2 samples.

Results

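The 42 genes described here are transcribed around S phase or around G2 and mitosis, or act in the G1 steps before them. They were taken by symbol from the 27998 genes of both deposited matrices, and all 42 were found. Of them, 14 act in S phase, 24 in G2 and mitosis, and 4 (Cdk4, Ccnd1, Ccne1 and Stmn1) are regulators of G1 or are detected broadly. Cells were described by how many S or G2/M members had at least 1 unique molecular identifier (UMI, one captured transcript) after each cell was thinned at random to 3000 UMIs. A cell counted as having the set when it had at least 3 of its members.

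A dividing cell passes through G1, S, G2 and mitosis. In late G1, cyclin D with CDK4 and then cyclin E with CDK2 release the E2F factors from RB, and genes for DNA replication are switched on. Genes of G2 and mitosis are held down in resting cells by the DREAM complex and are activated later by B-MYB and FOXM1 with the CCAAT-binding factor NF-Y. Fibroblasts of a resting adult pancreas seldom divide, while those of a pancreatic tumour form a growing stroma.

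All cells came from Rosa26-mTmG;Fabp4-Cre mice. In these the Fabp4 promoter, which is active in adipocytes and also in some endothelial cells and macrophages, drives Cre, and Cre permanently switches the reporter to green fluorescence (GFP), so GFP does not mark a single cell type. The normal library held GFP-positive pancreatic cells of mice aged 6 to 9 weeks and is labelled as pancreatic stellate cells. The tumour library is labelled as cancer-associated fibroblasts (CAFs) and held cells positive for GFP and podoplanin from tumours harvested 21 days after FC1245 pancreatic cancer cells were implanted into the pancreas of mice aged 8 weeks. Each group was 1 library, the number of mice behind it is not given in the labels, and digestion differed (collagenase P, pronase and DNase for normal tissue; for tumours dispase, collagenase IV and DNase, followed by trypsin), so that group, gate, digestion and library cannot be told apart. No p-value was therefore computed, and every interval below is an exact 95% interval of counting error only.

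The normal library had 36675424 UMIs over 5437 barcodes and the tumour library 33285044 UMIs over 2942, with 4 barcodes present in both (2 among the cells retained). After filtering and removal of doublets there were 4515 normal and 2520 tumour cells. Clusters were made without the members and without other S phase, G2/M and histone genes, and were named from marker genes. The fibroblast-like class held 1482 normal and 2226 tumour cells. The label of stellate cells was not borne out by all markers: Lrat, the retinol-storing enzyme, had 0 UMIs in the normal fibroblast-like cells, which allows up to 0.212 CPM (counts per 1000000 UMIs), Gfap had 1 UMI, and Des was at 50.8 CPM. In the tumour cells Lrat had 70 UMIs (2.44 CPM), Gfap 1 UMI and Des 80.7 CPM, while Pdpn, one of the gate's markers, was at 424 CPM against 147 CPM in the normal cells. Besides fibroblast-like cells, the normal library held 1350 endothelial-like, 684 macrophage-like or monocyte-like and 149 pericyte-like or smooth muscle-like cells. A further 722 cells, in a cluster led by Clec10a whose best-scoring markers were those of macrophages, stayed unnamed.

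Promoters are shown first because motifs in them differ in frequency between the S and the G2/M members. RefSeq promoters on GRCm38.p6, each running from 250 bases before to 50 bases after a transcription start, were matched for 32 members. Those not matched were Ccnd1, Stmn1, Mcm4, Gins2, Hist1h1b, Ccna2, Aurkb, Pbk, Tpx2 and Kif20a. The 2 matched G2/M members with the most CPM in the tumour fibroblast-like cells were Top2a, the topoisomerase that untangles sister chromatids, and Cdk1, the mitotic kinase. The corresponding S members were Rrm1, a subunit of the enzyme that makes deoxynucleotides, and Tyms, thymidylate synthase. Mcm7 and Mcm6, subunits of the replicative helicase, were added after the motifs had been seen, because they hold E2F words. Capitals mark the motifs on either strand: TTTGAA (the cell cycle homology region, CHR), the E2F words TTTCCCGC, TTTCGCGC, TTTGCCGC and TTTGGCGC, and CCAAT (the NF-Y box). The windows, in the order printed, are chr11:99024140-99024439 on the minus strand, chr10:69352863-69353162 on the minus strand, chr7:102441445-102441744 on the plus strand, chr5:30073576-30073875 on the minus strand, chr5:138171834-138172133 on the minus strand and chr1:128359656-128359955 on the minus strand.
Top2a: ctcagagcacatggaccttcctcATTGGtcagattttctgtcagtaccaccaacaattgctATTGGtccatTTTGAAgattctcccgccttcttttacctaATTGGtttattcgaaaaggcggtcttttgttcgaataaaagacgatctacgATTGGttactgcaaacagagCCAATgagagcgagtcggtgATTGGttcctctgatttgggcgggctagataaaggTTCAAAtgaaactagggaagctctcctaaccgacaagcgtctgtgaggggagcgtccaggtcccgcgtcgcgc
Cdk1: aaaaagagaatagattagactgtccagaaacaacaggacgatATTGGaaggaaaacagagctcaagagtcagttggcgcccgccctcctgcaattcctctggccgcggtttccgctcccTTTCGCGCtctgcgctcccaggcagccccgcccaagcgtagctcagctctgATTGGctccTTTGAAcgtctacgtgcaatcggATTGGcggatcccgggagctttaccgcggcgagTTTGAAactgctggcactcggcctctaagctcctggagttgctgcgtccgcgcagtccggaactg
Rrm1: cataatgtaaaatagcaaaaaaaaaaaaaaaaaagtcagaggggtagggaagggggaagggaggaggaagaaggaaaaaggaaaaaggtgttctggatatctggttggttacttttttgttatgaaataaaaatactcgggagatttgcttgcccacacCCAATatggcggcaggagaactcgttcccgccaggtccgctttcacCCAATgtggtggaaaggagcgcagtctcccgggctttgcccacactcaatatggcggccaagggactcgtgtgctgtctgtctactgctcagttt
Tyms: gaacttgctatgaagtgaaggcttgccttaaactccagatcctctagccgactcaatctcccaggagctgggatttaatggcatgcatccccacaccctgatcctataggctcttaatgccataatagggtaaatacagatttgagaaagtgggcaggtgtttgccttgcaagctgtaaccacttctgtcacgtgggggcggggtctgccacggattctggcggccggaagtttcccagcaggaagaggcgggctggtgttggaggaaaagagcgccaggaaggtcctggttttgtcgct
Mcm7: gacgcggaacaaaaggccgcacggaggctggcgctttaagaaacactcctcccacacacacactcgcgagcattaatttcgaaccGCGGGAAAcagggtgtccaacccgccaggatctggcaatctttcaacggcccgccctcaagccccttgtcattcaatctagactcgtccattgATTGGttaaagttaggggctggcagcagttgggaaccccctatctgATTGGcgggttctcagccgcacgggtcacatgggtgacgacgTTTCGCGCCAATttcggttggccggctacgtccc
Mcm6: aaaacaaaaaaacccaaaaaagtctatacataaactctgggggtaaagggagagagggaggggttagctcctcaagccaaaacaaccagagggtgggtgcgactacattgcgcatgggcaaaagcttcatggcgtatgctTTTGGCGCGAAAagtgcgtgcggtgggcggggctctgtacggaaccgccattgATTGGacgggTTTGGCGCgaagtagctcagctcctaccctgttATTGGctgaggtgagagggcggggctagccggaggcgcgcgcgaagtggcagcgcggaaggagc

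The CHR letters were found in 14 of 19 matched G2/M members and in 1 of 11 matched S members, Mcm2, beside 20.2% of all 27025 genes in the table, each gene counted once over all its promoters. In each of those 14 G2/M members at least 1 of these words began no further than 100 bases before the start. An E2F word was found in 6 of 11 S members (Mcm3, Mcm5, Mcm6, Mcm7, Cdc6 and Uhrf1) and in 1 of 19 G2/M members, Cdk1, beside 2.61% of all genes (in Uhrf1 the word is in only 1 of its promoters). CCAAT was present in 17 of the 19 G2/M and 9 of the 11 S members, beside 41.1% of all genes. Of all 32851 promoters, 17.9% hold the CHR letters, 2.26% an E2F word and 37.4% CCAAT. The CCAAT box was thus frequent in both sets, the CHR mainly in the G2/M set and the E2F words mainly in the S set. Top2a held 2 CHR words and 6 CCAAT boxes, Cdk1 held 2 CHR words, 1 E2F word and 3 CCAAT boxes, and the window of Tyms held none of the motifs searched. In Mcm6 and Mcm5, E2F words on opposite strands overlap, and in Mcm7 an E2F word overlaps a CCAAT box. A word is a description of these letters and was not tied to binding of a factor.

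Cells with at least 3 G2/M members were more frequent among tumour than among normal fibroblast-like cells. There were 39 of 2052 such tumour cells of at least 3000 UMIs, a share of 1.90% (1.35 to 2.59%), and 5 of 1436 normal cells, 0.348% (0.113 to 0.811%). The intervals do not overlap, and 174 tumour and 46 normal cells were left out for depth. Without thinning, the shares were 3.64% and 0.472%, at median depths of 10413 and 9015 UMIs per cell. When cell cycle genes were used in clustering, the shares were 0.199% (0.0542 to 0.508%) and 0.0707% (0.00179 to 0.393%), and these intervals overlap. The genes counted took part in that clustering, so its classes and these shares are not independent. In that clustering the tumour lymphatic endothelial-like class held 44 of 130 cells with at least 3 G2/M members, against 5 of 66 in the main one. Near the minimum, 12 tumour cells and 1 normal cell had exactly 2 G2/M members, and 7 tumour cells and 0 normal cells exactly 3. A minimum of 2 members gave 51 tumour and 6 normal cells, and a minimum of 5 gave 27 and 4. In the tumour, 1877 cells had none, and the positive cells ran up to 18 of 24 members. The 5 normal cells had 4, 6, 7, 17 and 18 members.

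**Figure D1:**
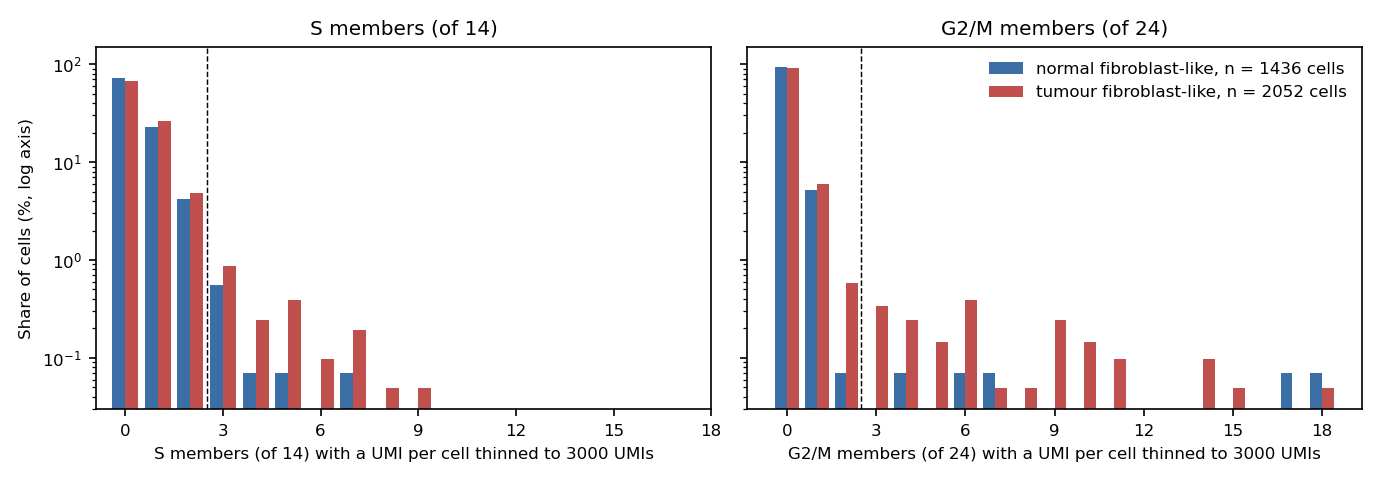
Share of fibroblast-like cells (log axis) by the number of S members (left) and G2/M members (right) with a UMI after thinning to 3000 UMIs, for 1436 normal and 2052 tumour cells. The dashed line marks the minimum of 3. Most cells have no G2/M member, while 39 tumour and 5 normal cells lie right of the line, up to 18 of 24.

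For the S members the separation was weaker. At least 3 of the 14 were found in 39 of 2052 tumour fibroblast-like cells, 1.90% (1.35 to 2.59%), and in 11 of 1436 normal ones, 0.766% (0.383 to 1.37%). The intervals overlap slightly, and the normal share was about that of the pericyte-like or smooth muscle-like cells, 1 of 127 or 0.787%, at median depths of 9148 and 7397 UMIs in the cells compared. No difference from that class is read from it, although 2 of the 5 G2/M-positive normal cells were among the 11. Many cells lay near the minimum: 99 tumour and 60 normal cells had exactly 2 S members, and 18 and 8 had exactly 3. Without thinning, the S shares rose to 17.7% and 8.77%, and at 5000 UMIs they were 3.72% and 1.43%, so that the S share depended on the depth and on the minimum. Both sets were present together in 18 of the 39 tumour and 2 of the 5 normal cells with G2/M members. Counting all 42 genes at once gave 6.14% and 4.67%.

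The class of pericyte-like or smooth muscle-like cells was counted in the same way for comparison. Of its 127 cells, 0 had at least 3 G2/M members, which allows a share of up to 2.36%, a limit above both fibroblast-like shares, and 15.7% had at least 1. The share with at least 1 G2/M member was 5.64% in normal and 8.53% in tumour fibroblast-like cells. Both lie below the pericyte-like class, and nothing is read from cells with a single member.

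Most G2/M-positive tumour fibroblast-like cells belonged to a single cluster. The cluster led by Lrrc15, in which 9 of 12 markers of myofibroblast-like CAFs (myCAFs) were at least 2-fold above the other tumour clusters, held 24 of the 39 cells, or 61.5%, while being 16.6% of the cells. Its share was 24 of 340, 7.06% (4.57 to 10.3%). The other clusters had 5 of 497 in that led by Thbs4 (1.01%, 0.327 to 2.33%), 4 of 410 in that led by Apod (0.976%, 0.266 to 2.48%) and 4 of 768 in that led by Ptx3 (0.521%, 0.142 to 1.33%), in which 6 of 11 inflammatory CAF and 9 of 10 universal fibroblast markers were at least 2-fold higher. The interval of the Lrrc15 cluster lies above all of these, while the intervals of these 3 clusters overlap one another. The tumour cells of the mostly normal Tenm4 cluster, too few to be listed among clusters of at least 50 cells per library, had 2 of 30 (0.818 to 22.1%), an interval that contains the Lrrc15 share. When cell cycle genes were used in clustering, the share in the tumour cluster with the most myCAF marker UMIs was 0.817%. The tumour lymphatic endothelial-like class then had 44 of 130 cells with at least 3 G2/M members, against 5 of 66 in the main clustering. Positive tumour fibroblast-like cells went from 39 to 4, so the 2 classes do not hold the same cells in both clusterings. Since the counted genes helped to make the clusters there, that setting does not test how stable the Lrrc15 share is. Without the Lrrc15 cluster the tumour share was 15 of 1712 cells, 0.876% (0.491 to 1.44%), an interval that overlaps the normal one. The 2 normal clusters had 3 of 1022 (0.294%, cluster led by Tenm4) and 2 of 399 (0.501%, cluster led by Krtdap). For S members the Lrrc15 cluster was again highest, at 15 of 340 cells or 4.41% (2.49 to 7.17%). This interval overlaps those of the Apod cluster (1.95%, 0.846 to 3.81%) and the Thbs4 cluster (1.61%, 0.697 to 3.15%) and lies above that of the Ptx3 cluster (0.911%, 0.367 to 1.87%).

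**Figure D2:**
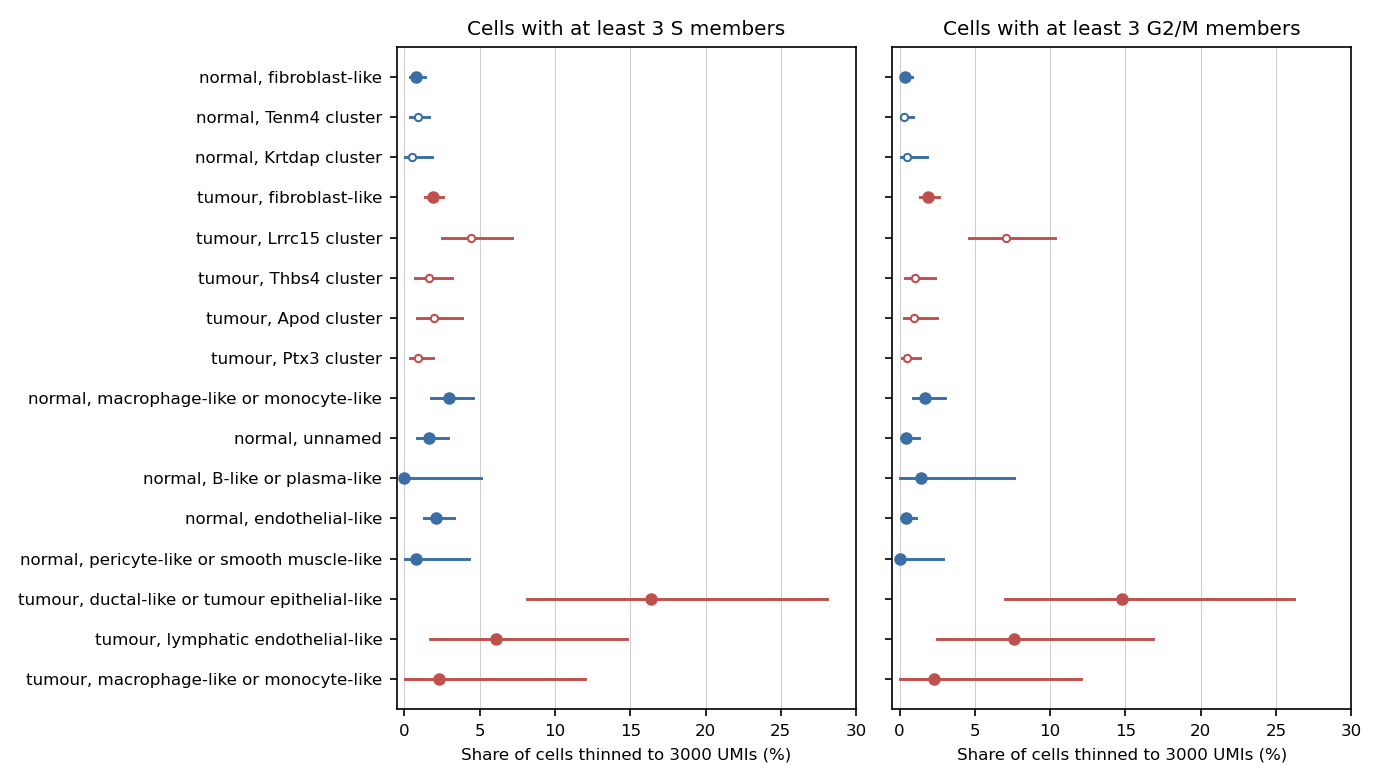
Share of cells with at least 3 S members (left) and at least 3 G2/M members (right) after thinning to 3000 UMIs, with exact 95% intervals. Filled points are cell classes and open points are fibroblast-like clusters, blue for the normal and red for the tumour library. The Lrrc15 cluster, at 7.06% for G2/M, lies above the other fibroblast-like clusters.

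Depth moved with these shares. Cells of the Lrrc15 cluster had a median of 26608 UMIs against 7825 to 12116 in the other tumour fibroblast-like clusters. G2/M-positive tumour cells had 28122 UMIs against 10950 in the rest, and within the Lrrc15 cluster 33544 against 26396. Thinning equalises the number of UMIs per cell, and the part of cell depth in these shares was otherwise not tested. Doublet scores of the G2/M-positive tumour cells had a median of 0.0385 against 0.0191. Of 11 epithelial markers, no G2/M-positive fibroblast-like cell of the tumour had more than 2 after thinning and the median was 0. The other tumour fibroblast-like cells also had a median of 0. The tumour epithelial-like cells had a median of 6, from 0 to 11, and 65.6% of them had at least 3. The part of doublets or epithelial cells in these shares was not tested.

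Summed over all fibroblast-like cells, most members were higher in the tumour library. The sums held 14152774 normal and 28686756 tumour UMIs, and 37 of 42 members had a fold above 1. Of the 24 members whose mean of both sums was at least 5 CPM, 10 were at least 2-fold higher with an interval excluding 1, and 1 was lower. Over all 10054 genes tested, 7.02% were higher and 13.2% lower by the same rule. The median log2 fold was 1.08 over the 24 G2/M members, 0.88 over the 14 S members and 0.58 over the 4 G1 members, beside -0.30 over all genes tested. The members were chosen with earlier results of these data known, so these medians are a description. Outside the members, 30 other G2/M genes that passed the filter had a median of 0.10, and 20 other S phase genes -0.31. Since a member could pass the minimum through the tumour sum alone, the counts over passing members describe these libraries and support nothing. Scaling by TMM factors moved the median of all genes to 0.03 and the share of higher among called genes from 34.7% to 61.8% (62.8% with the median ratio of genes), and 15 members were then higher (16 with the median ratio). Over all genes, 1056 of 10024 were higher with TMM factors and 1141 of 10281 with the median ratio. Without the Lrrc15 cluster 0 members were higher and the G2/M median was -0.14, and without the G2/M-positive cells 2 were higher and the median was 0.47. All genes called higher then numbered 623 of 10015 and 689 of 10026. The G2/M members chose the positive cells, so the change on removing them follows in part from the choice. Without any filter on level, 18 of 42 were higher, and with every cell weighted the same, 2. Over all genes, 1437 of 27998 were higher without a filter and 632 of 10034 with equal weights.

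**Figure D3:**
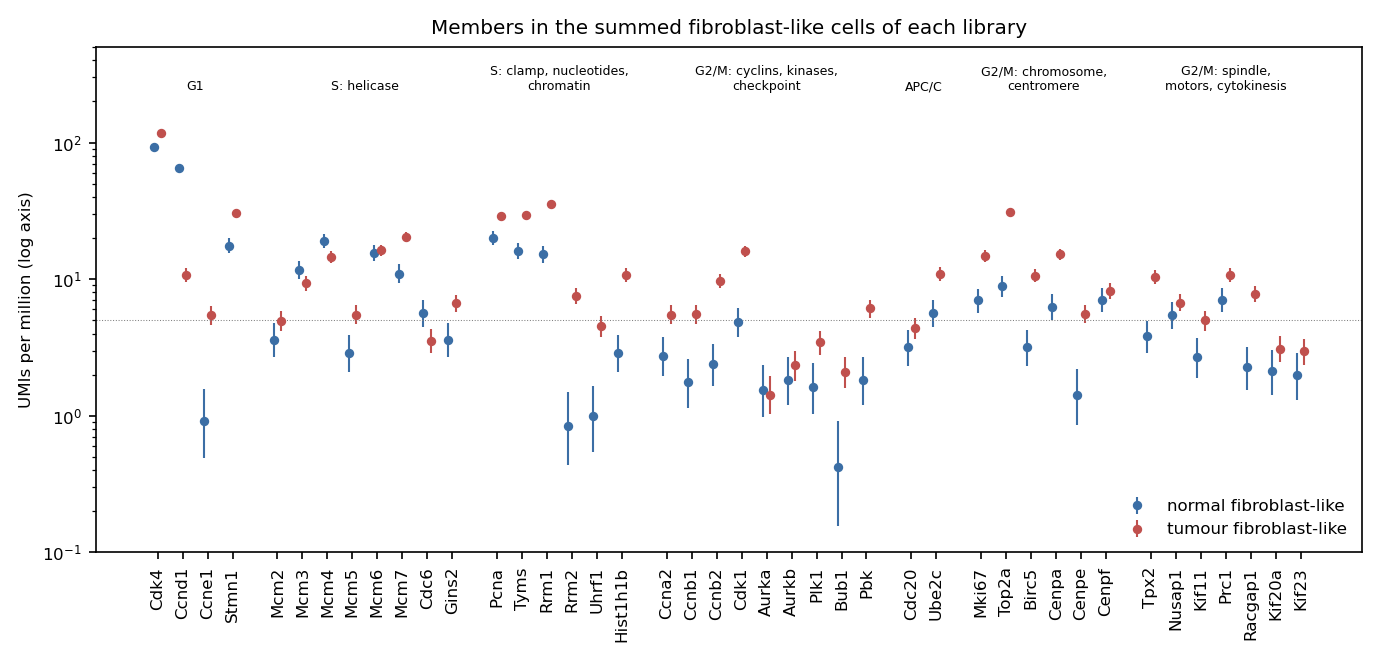
Level of each of the 42 members in the summed fibroblast-like cells of the normal (blue) and tumour (red) library, in CPM on a log axis with exact 95% Poisson intervals, grouped by role. The dotted line is the minimum mean of 5. Ccnd1 lies at 65.1 in the normal and 10.7 in the tumour cells, and Top2a at 8.90 and 30.8.

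Among the G1 members, Ccnd1, the cyclin D1 gene at chr7:144929931-144939925, was the only member called lower. Its normal level was 65.1 CPM (60.9 to 69.4) and its tumour level 10.7 CPM (9.54 to 12.0), which is 6.08-fold lower (5.34 to 6.94). After thinning, 15.5% of normal and 2.53% of tumour cells had a UMI. Both normal clusters lay above every tumour cluster: Ccnd1 was at 86.4 CPM in the Tenm4 and 30.9 in the Krtdap cluster, and at 21.0 in Apod, 13.9 in Thbs4, 8.50 in Lrrc15 and 4.33 in Ptx3. Its log2 fold stayed between -2.96 and -2.27 under all alternatives run. Endothelial-like cells of the normal library, with 494 CPM in the cluster led by Car4, held much more Ccnd1, and endothelial markers summed to 453 normal and 199 tumour CPM in the fibroblast-like cells. How far that RNA adds to the Ccnd1 of the normal sum was not tested.

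Cdk4, the kinase partner of cyclin D, differed by 1.28-fold (1.20 to 1.37), with 92.1 normal and 118 tumour CPM. Ccne1, cyclin E1, had 13 normal and 156 tumour UMIs, 0.919 and 5.44 CPM, and did not pass the filter. Its ratio was 5.92 (3.36 to 11.4), and it lay between 2.40 and 8.07 CPM in the 4 tumour clusters against 1.15 and 0.565 in the normal ones. Stmn1, which destabilises microtubules, was at 17.5 and 30.6 CPM, 1.75-fold apart (1.52 to 2.02), and held 69.7% of its normal and 58.0% of its tumour UMIs in the few G2/M-positive cells. So the cyclin E gene was higher in the tumour clusters while the cyclin D1 gene was lower, and Cdk4 differed little.

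The helicase loading and firing genes had a median log2 fold of 0.26 over all 8 against 1.56 over the other 6 S members. Of Mcm2 to Mcm7, Cdc6, which loads the helicase, and Gins2, which fires it, 5 of 8 passed the filter and 0 were 2-fold apart, with or without it. Mcm7 had 155 normal and 581 tumour UMIs (1.85-fold after scaling, 1.55 to 2.22), Gins2 51 and 191 UMIs (1.85-fold, 1.35 to 2.57), Mcm5, the highest of the 8, 41 and 158 UMIs (1.90-fold, 1.34 to 2.75, under the filter), and Mcm6 was at 15.5 and 16.2 CPM (1.05-fold, 0.890 to 1.24). Mcm3 and Mcm4 lay on the other side, with folds of 0.798 (0.655 to 0.975) and 0.767 (0.656 to 0.897). That order within the family depends on scaling, since the log2 fold of Mcm3 was -0.32 by UMI sums and 0.01 by the median ratio. Cdc6, at 5.65 and 3.56 CPM, did not pass the filter.

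The other S members, which supply nucleotides, clamp the polymerase or act on new chromatin, were further apart. Rrm1 had 15.2 normal CPM (13.2 to 17.4) and 35.6 tumour CPM (33.4 to 37.8), 2.34-fold higher (2.02 to 2.73). Hist1h1b, a linker histone gene made in S phase, was at 2.90 and 10.8 CPM, 3.72-fold higher (2.68 to 5.28). Histone genes of this kind are alike in sequence and mostly lack a poly(A) tail, so their counts in a 3′ library are uncertain. Pcna, the sliding clamp, had 283 and 825 UMIs (1.44-fold after scaling) and Tyms was at 16.1 and 29.4 CPM (1.83-fold), neither called. Rrm2, the other reductase subunit, had only 12 normal against 215 tumour UMIs (8.84-fold, 4.96 to 17.4), and Uhrf1, a reader of hemimethylated DNA, 14 against 130 (4.58-fold, 2.63 to 8.61). Neither of these passed the filter.

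Among the G2/M members, the largest sums were those of Top2a. Top2a had 8.90 normal CPM (7.42 to 10.6) and 30.8 tumour CPM (28.8 to 32.9), 3.46-fold higher (2.87 to 4.21). Its UMIs were in 5 of 1436 normal and 38 of 2052 tumour cells after thinning. Cdk1 was at 4.88 and 16.0 CPM, 3.27-fold higher (2.54 to 4.28). Ccnb2, cyclin B2, was at 2.40 and 9.69 CPM, 4.03-fold higher (2.82 to 5.94). Racgap1, which acts in cytokinesis, was 3.47-fold higher (2.39 to 5.19), and Birc5 (survivin, of the chromosomal passenger complex) 3.34-fold (2.44 to 4.68). Tpx2, a spindle assembly factor, was 2.73-fold higher (2.04 to 3.72), Cenpa, the centromeric histone, 2.41-fold (1.92 to 3.06), and Mki67, the proliferation antigen, 2.11-fold (1.69 to 2.65). These are the 8 G2/M members called.

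The remaining 16 G2/M members split by their level. The 4 that passed the filter were not called: Ube2c, the E2 enzyme of the anaphase promoting complex (1.94-fold, 1.51 to 2.51), Prc1 (1.51-fold, 1.20 to 1.92), Nusap1 (1.24-fold, 0.945 to 1.63) and Cenpf (1.16-fold, 0.918 to 1.49), of which the last 3 act on the spindle or kinetochore. The other 12 were under the filter, between 0.424 and 3.18 CPM in the normal sum, among them the cyclins Ccna2 and Ccnb1 and the kinases Aurka, Aurkb, Plk1, Bub1 and Pbk. Of these 12, Ccnb1 (3.14-fold), Plk1 (2.12-fold), Bub1 (4.93-fold), Pbk (3.32-fold) and the centromere motor gene Cenpe (3.95-fold) were at least 2-fold higher with an interval excluding 1. Ccna2 (2.00-fold), Aurkb (1.27-fold), Cdc20, the activator of the anaphase promoting complex (1.38-fold), and the kinesin genes Kif11 (1.86-fold), Kif20a (1.46-fold) and Kif23 (28 normal and 85 tumour UMIs) were not called. Aurka alone of the 24 was not above 1, with 22 normal and 41 tumour UMIs (0.919-fold, 0.535 to 1.62).

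These intervals count UMIs, while few cells hold the G2/M transcripts. The 5 G2/M-positive normal cells held 79.0% of all G2/M UMIs of the normal fibroblast-like cells of at least 3000 UMIs, and the 39 tumour cells 82.5%. Since these cells were chosen by the G2/M members, the high shares follow in part from the choice. For S members, which did not choose the cells, the shares were 7.95% and 27.3%, from 12.5% for Pcna to 73.8% for Hist1h1b in the tumour. A single normal cell, with 30801 UMIs, held 57.9% of the normal UMIs of Top2a, 59.6% of Mki67 and 51.3% of Ube2c. Without the cell with the most G2/M UMIs in each library, an alternative chosen after seeing the data, the G2/M median log2 fold was 1.81 and 13 members were higher. Over all genes, 709 of 10052 were higher in that setting. The log2 fold of Top2a then was 2.85 and that of Mki67 2.12. The normal sums of these genes thus rested largely on 1 cell.

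Within the tumour library, the Lrrc15 cluster was compared with the other fibroblast-like cells. All 24 G2/M members had more CPM in it. Of the 18 G2/M members that passed the filter, 17 were at least 2-fold higher and 0 lower, Cenpf being the one not called (12.2 against 6.34 CPM, 1.92-fold). Of 13 S members that passed, 5 were higher, and of 4 G1 members 1, Stmn1. Over all 9579 genes tested in this comparison, 5.09% were higher and 8.04% lower. Members could pass the minimum through the Lrrc15 cluster alone, as Pbk did with 16.1 against 1.29 CPM, so these counts are a description. The median log2 fold was 2.13 over all 24 G2/M members and 0.57 over all 14 S members, beside -0.06 over all genes. Outside the members, 39 other G2/M genes that passed the filter had a median of 0.65, and 25 other S phase genes 0.40. Top2a was at 69.7 CPM in the Lrrc15 cluster and at 6.13 to 13.2 CPM in the other 3 tumour clusters, which overlapped the normal clusters at 5.31 and 15.1 CPM. Mki67 was at 35.3 CPM against 3.73 to 5.35 CPM in the other tumour clusters and 3.92 and 12.2 CPM in the normal ones. Pbk, a mitotic kinase, was 12.5-fold higher (8.16 to 19.9) and Racgap1 8.11-fold (5.84 to 11.5). Of the S members, Hist1h1b (29.8 against 1.65 CPM), Rrm2 (7.25-fold), Uhrf1 (2.93-fold), Mcm5 (2.49-fold) and Rrm1 (2.01-fold) were higher, while Pcna (0.933-fold) and Mcm6 (0.993-fold) were at the level of the other clusters. Markers of myCAFs (10557 against 2659 CPM in sum) and of pericytes or smooth muscle (3546 against 691 CPM) moved with the members here. Epithelial markers did too, at 1788 against 780 CPM, with 2 of 11 passing the filter. In G2/M-positive tumour fibroblast-like cells the epithelial sum was lower than in the others, at 708 against 1137 CPM. Within the Lrrc15 cluster it was 915 against 1880 CPM. The part of epithelial RNA in the result was not tested.

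**Figure D4:**
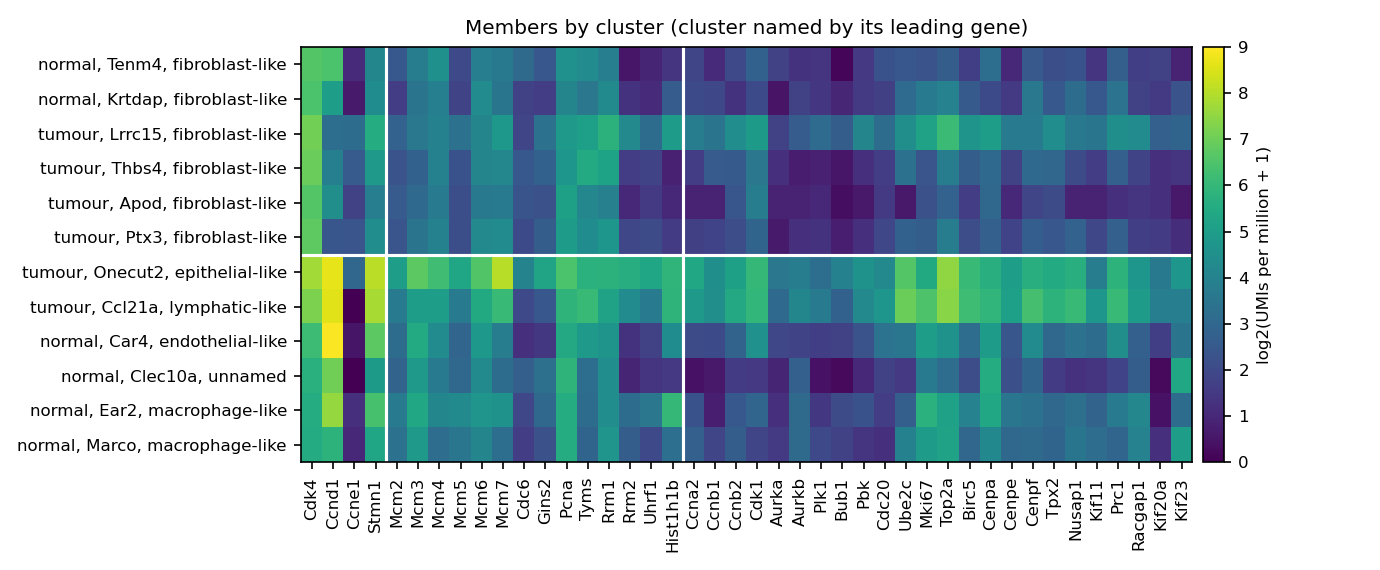
Level of each member (columns: G1, S and G2/M members, separated by white lines) in 12 clusters named by their leading gene, as log2 of CPM plus 1. The 6 fibroblast-like clusters are above the horizontal line. The Lrrc15 row is brighter than the other fibroblast-like rows across the G2/M columns, and the Ccnd1 column is darker in the 4 tumour fibroblast-like rows than in the 2 normal ones.

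Across the other classes, the tumour epithelial-like cells had the highest share. Of 61 cells, 9 had at least 3 G2/M members, 14.8% (6.98 to 26.2%), and 10 had at least 3 S members, 16.4% (8.15 to 28.1%). The tumour lymphatic endothelial-like cells followed with 5 of 66, 7.58% (2.51 to 16.8%), an interval that overlaps that of the Lrrc15 cluster. In the normal library the macrophage-like or monocyte-like cells had 11 of 642, 1.71% (0.858 to 3.05%), the unnamed cells 3 of 669 (0.448%) and the endothelial-like cells 4 of 940 (0.426%). The interval of the normal fibroblast-like cells, which ends at 0.811%, lay below that of the macrophage-like cells and overlapped those of the endothelial-like and unnamed cells. For S members, the normal macrophage-like or monocyte-like cells had 19 of 642, 2.96% (1.79 to 4.58%), an interval above that of the normal fibroblast-like cells, and the endothelial-like cells had 2.13% (1.30 to 3.27%), above the fibroblast-like 0.766%. The endothelial-like interval overlaps the fibroblast-like one. Endothelial-like cells were shallower (median 3978 UMIs), and 410 of 1350 were left out.

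A few members were expressed apart from the rest of their set. Kif23, a kinesin of the central spindle, was at 41.4 CPM (36.2 to 47.1) in the unnamed Clec10a-led cluster and 32.2 CPM in the macrophage-like cluster led by Marco, against 0.533 to 6.45 CPM in the 6 fibroblast-like clusters. Only 4.85% of its UMIs in the Clec10a-led cluster were in cells with at least 3 G2/M members. Cenpa was at 47.1 CPM (41.6 to 53.1) in that cluster, with 2.75% of its UMIs in such cells, and at 29.5 CPM in the endothelial-like cluster led by Car4. By contrast, Top2a in the Clec10a-led cluster was at 8.24 CPM with 65.9% of its UMIs in those 3 cells, and Cdk1 at 1.79 CPM. In that cluster, Kif23 and Cenpa UMIs were thus mostly in cells without the rest of the set. When the unnamed cells were added to the fibroblast-like cells, the log2 fold of Kif23 changed from 0.58 to -2.15 and that of Cenpa from 1.27 to -0.23. Ccnd1 also varied apart from the set: it was at 407 CPM in tumour epithelial-like and 387 CPM in tumour lymphatic endothelial-like cells.

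Genes that are not members were compared between the 39 G2/M-positive tumour fibroblast-like cells and the other 2013. The members chose these cells, so the other genes are described only. A gene could also pass the minimum through the 39 cells alone, as Hmmr did with 152 against 0.0736 CPM. The counts of called genes, here and for the regulators below, are therefore a description. Of 88 other G2/M genes, 83 passed the filter, 81 were at least 2-fold higher and 0 lower, beside 7.65% higher and 7.92% lower of 9579 genes, and their median log2 ratio was 5.44. Hmmr, a spindle protein, had a UMI in 32 of the 39 cells and in 2 of the 2013. Dlgap5 had one in 20 and 1, and Ndc80, of the kinetochore, in 21 and 1. Pttg1, securin, at 30.3 and 40.1 CPM, and Ccnd3, at 108 and 78.0 CPM, were the 2 that passed and were not higher. Ccnd3 is a cyclin D gene that was placed in this list, although cyclin D acts in G1. Of 44 other S phase genes 40 passed and 38 were higher, with a median of 3.19. Tk1, thymidine kinase, was at 93.5 against 1.58 CPM, and Exo1 had a UMI in 11 of 39 against 2 of 2013 cells. Among histones 10 of 12 that passed were higher. The same lists within the Lrrc15 cluster alone gave 79 of 84 G2/M and 36 of 38 S genes higher, beside 7.16% higher and 5.3% lower of 9258 genes.

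**Figure D5:**
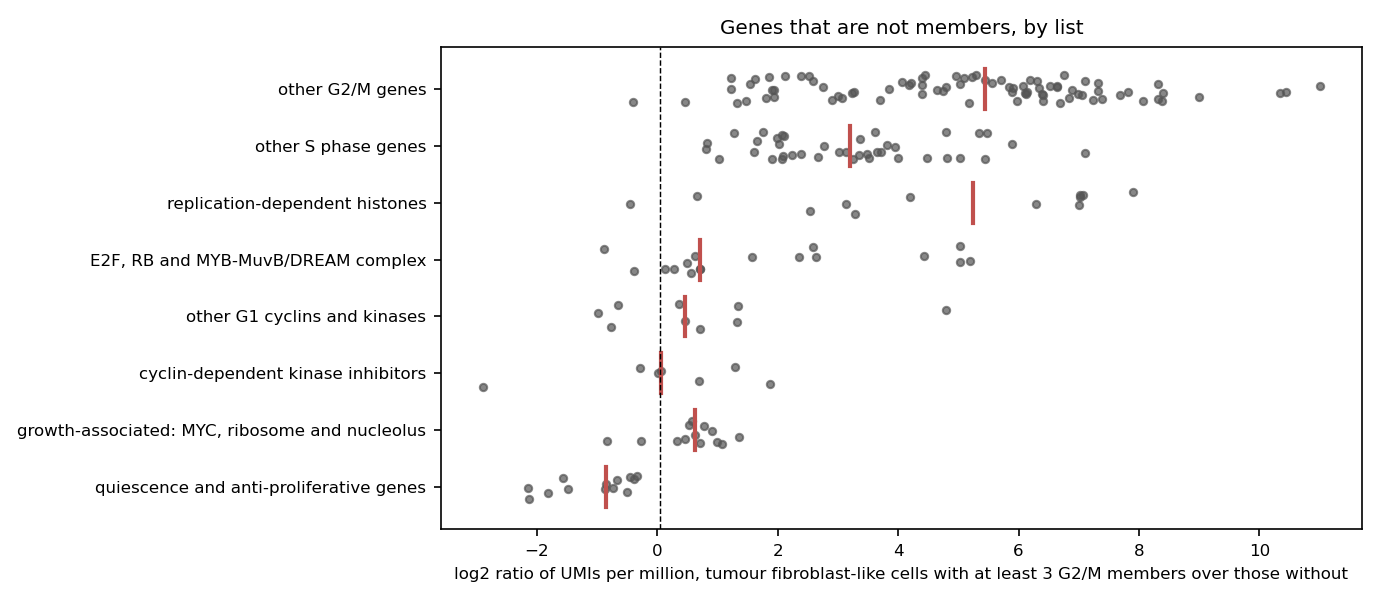
Genes that are not members, each a grey point, by list: log2 ratio of CPM in the 39 G2/M-positive tumour fibroblast-like cells over the 2013 others, for genes with a mean of at least 5. Red bars are list medians (5.44 for other G2/M genes) and the dashed line is the median of all genes tested.

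Regulators of the cycle differed among themselves in these cells. The counts for the 39 cells stand beside 7.65% higher and 7.92% lower of the 9579 non-member genes tested. Of 20 genes of the E2F, RB and DREAM list 17 passed the filter, 8 of them higher and 0 lower. These were led by the S phase repressors E2f7 (27.0 against 0.736 CPM) and E2f8 (16.8 against 0.516). Mybl2, the gene of B-MYB, followed (14.3 against 0.442), while Rb1 was at 5.90 against 10.9 CPM and not called. Of 7 cyclin-dependent kinase inhibitors, Cdkn2d (3.66-fold, 2.96 to 4.50) and Cdkn2c (2.44-fold, 1.77 to 3.31) were higher. Cdkn1c, the gene of p57, was 7.46-fold lower, at 13.5 against 100 CPM, with a UMI in 7 of the 39 cells and 1010 of the 2013. Ccne2, cyclin E2, was at 71.6 against 2.58 CPM. Of 13 quiescence and anti-proliferative genes that passed 0 were higher and 5 lower, among them Txnip (4.44-fold), Klf2 (4.36-fold) and Gas6 (3.52-fold). Of 13 growth-associated genes, Dkc1 and Nop56 of the nucleolus were higher, whereas Myc was at 101 against 180 CPM and not called. Within the Lrrc15 cluster Cdkn1c was 9.03-fold lower (2.46 to 75.1), at 2.28 against 20.5 CPM, Klf2 4.07-fold lower and Gas6 3.04-fold lower. Txnip was not among the 3 lowest of its list there, of which the third, Klf4, was 2.27-fold lower, and Txnip was 3.89-fold lower in the Lrrc15 cluster as a whole than in the other tumour fibroblast-like cells. Markers of universal fibroblasts (median log2 -1.12) and inflammatory CAFs (-0.90) were lower in the 39 cells, and within the Lrrc15 cluster these medians were -0.34 and -0.39.

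Between the tumour and normal sums, few genes of the wider lists were called, beside the 7.02% higher and 13.2% lower of all genes. Of 20 other S phase genes that passed, Lig1, DNA ligase 1, was called higher (2.71-fold, 2.22 to 3.32) and 1 was called lower. The median log2 fold of these 20 was -0.31, beside -0.30 over all genes tested. Of 30 other G2/M genes 4 were higher, led by 2810417H13Rik (8.44-fold) and Cks2, a CDK subunit (2.82-fold), and 0 lower, and the median log2 fold of these 30 was 0.10. Of 6 histones that passed, Hist1h4i was higher and 3 were lower. Of the 20 genes of the E2F, RB and DREAM list 12 passed the filter, and 0 of these were called higher or lower.

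Of 7 cyclin-dependent kinase inhibitors, 3 were called higher and 1 lower, beside 7.02% and 13.2% of all genes. Cdkn2a, the INK4A and ARF locus, had 1.20 normal and 15.4 tumour CPM (12.9-fold, 7.94 to 22.3), Cdkn2b at 7.35 and 29.7 CPM (4.04-fold, 3.29 to 5.00) and Cdkn1a, p21, at 84.0 and 182 CPM (2.17-fold, 2.03 to 2.31). Cdkn2a was highest in the cluster that also held most G2/M-positive cells, at 33.8 CPM in Lrrc15 against 3.99 to 10.7 CPM in the other tumour clusters. It stood at 524 CPM in the tumour epithelial-like cells, whose markers summed to 1107 CPM in the tumour fibroblast-like cells and 36.1 CPM in the normal ones, and the part of RNA from those cells was not tested. Only 2 of those 11 markers passed the filter, so the sum rests on few genes. Cdkn1c was 4.02-fold lower in the tumour sum, 98.1 against 394 CPM. It was at 509 CPM in the Tenm4 and 218 CPM in the Krtdap cluster, at 107 to 194 CPM in Thbs4, Ptx3 and Apod, and at 18.8 CPM in Lrrc15. The cluster with the most G2/M members had the least Cdkn1c of the 6 fibroblast-like clusters. Of 13 growth-associated genes 2 were higher and 0 lower in the tumour sum, Myc (3.62-fold) and Odc1 (4.33-fold), which makes polyamines, although Myc was 2.68-fold lower in the Lrrc15 cluster than in the other tumour fibroblast-like cells. Of 13 quiescence and anti-proliferative genes 4 were higher, led by Pdgfrl (4.68-fold), Ndrg1 (3.34-fold) and Btg1 (3.34-fold), and 2 lower, Txnip (3.94-fold) and Foxo1 (2.28-fold).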

How the data were processed

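The deposited matrices hold whole-number UMI counts per gene and barcode, made by the authors with Cell Ranger 3.1.0 on mm10, per the submitters' processing notes; the annotation release is not given in the sources used here. Cells entered with 500 or more genes, 1000 or more UMIs and no more than 10% mitochondrial UMIs (4616 normal and 2573 tumour). Scrublet in scanpy 1.11.5 removed 101 normal doublets by its own threshold. It marked 0.078% of the tumour cells, so the 53 highest-scoring ones, the number the expected rate gives, were removed there. Cells were scaled to 10000 UMIs and clustered (2000 variable genes, 30 principal components, 15 neighbours, Leiden resolution 0.5, igraph 0.11.9) with 188 cell cycle genes left out. Classes were named by markers, of which at least 3 had to be detected.

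UMIs were summed per library and class and divided by the sum of all UMIs to give CPM. With 1 library per group no test was possible. A gene was called when the fold was at least 2 and its exact 95% Poisson interval excluded 1, with a mean of at least 5 CPM. Shares have exact Clopper-Pearson intervals, and a share of 0 allows up to 3 counts of the total. The procedure was tested on simulated data. These were Poisson counts from the gene shares of the normal library, without differences between cells other than depth. They do not cover genes whose UMIs lie in few cells. Tools were numpy 2.4.6, scipy 1.17.1, matplotlib 3.10.9 and, for TMM factors, edgeR 4.0.16 in R 4.3.3.

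The members and gene lists were chosen with earlier results of these data known. All members may be named, and in each other list the top 3 and bottom 3 genes by ratio, except a gene that is not reported here. Alternatives covered thinning, the minimum number of members, cell filters, doublets, clustering, class membership, scaling, cell weights and the level filter.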

Additional observations from a re-analysis of the deposited data

How the results depend on the processing

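The G2/M results depend most on which cells the fibroblast-like class holds. With cell cycle genes used in clustering, the share with at least 3 G2/M members was 0.0707% in normal and 0.199% in tumour fibroblast-like cells. It was 0.817% in the tumour cluster with the most myCAF marker UMIs, and the tumour S share was 0.894%. Cells with at least 3 G2/M members were then 44 of 130 in the tumour lymphatic endothelial-like class, 33.8%, against 5 of 66 in the main clustering. The genes counted took part in that clustering, so it does not test how stable the shares are. In that setting 2 members were higher in the tumour sum, beside 690 of 10023 genes. There, 15 other G2/M genes were higher in the positive cells, and log2 folds were -1.88 for Nusap1, -0.51 for Cenpe and -0.14 for Plk1. Without the Lrrc15 cluster the tumour G2/M share was 0.876%, 0 members were higher, the G2/M median was -0.14, and log2 folds were -0.33 for Plk1, -0.51 for Mki67, -0.51 for Pbk and -0.81 for Hist1h1b. Without the G2/M-positive cells 2 members were higher, the G2/M median was 0.47, and log2 folds were -1.66 for Nusap1, -0.55 for Bub1 and -0.74 for Cenpe. These genes chose the cells removed, so that setting does not test how stable the G2/M folds are. With the unnamed cells added 2 members were lower, beside 1566 of 10266 genes, and log2 folds were -0.23 for Cenpa and -2.15 for Kif23. Without the cell with the most G2/M UMIs in each library, chosen after seeing the data, the G2/M median was 1.81. For these the cause was not tested.

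Members called higher numbered 16 by the median ratio of genes, 2 with every cell weighted the same, 18 at a filter of 1 CPM or with no filter, and 1 at 20 CPM, where 6 members were left. Over all genes, 1141 of 10281 were higher by the median ratio and 632 of 10034 with equal weights. At 1 CPM they were 1112 of 12387, with no filter 1437 of 27998 and at 20 CPM 427 of 6128. S shares moved with depth and minimum: in normal cells 0.275% at 2000 UMIs, 1.43% at 5000, 8.77% without thinning, 4.94% at a minimum of 2 and 0.139% at 5 members, and in tumour cells 3.72% at 5000 UMIs, 17.7% without thinning, 6.73% at 2 and 0.780% at 5 members. Tumour G2/M shares were 3.64% without thinning and 1.32% at 5 members. Without thinning the Lrrc15 cluster had 15.2% and the epithelial-like class 34.9%. Lenient cell filters gave no epithelial-like value, because that cluster then stayed unnamed. Lenient and strict cell filters and a resolution of 1 left the log2 folds of all 42 members on the same side. Depth limits the shares to cells of at least 3000 UMIs. No paired analysis was possible because each group is 1 library.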
